A study of Homo sapiens with 30 samples.

Results

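The members were 52 cell cycle and DNA replication genes, chosen by name, out of 38122 Ensembl genes in the table, and all 52 were matched to 1 identifier each. They held 25 genes of the passage into S phase (G1/S) that license and copy DNA, 25 genes of the passage through mitosis (G2/M) and 2 regulators of G1 that belong to neither class, CCND1 and CDKN2C. RNA sequencing had measured them in 30 libraries of 3 established human cancer lines at acidic or physiological pH: SiHa (cervix), FaDu (hypopharynx) and HCT116 (colon). Each line had 5 libraries from cells adapted to pH 6.5 for 1 month or longer and 5 libraries from cells at pH 7.4, in media that shared glucose at 10 mM, glutamine at 2 mM, serum at 10% and the buffers HEPES and PIPES at 25 mM each. All media also held penicillin and streptomycin, and the labels name no engineered allele. Nothing in the labels ties a group's libraries to separate cultures or to separately adapted populations, so the p-values rest on a spread between libraries that may be technical.

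Cells commit to division in G1, when cyclin D with CDK4 or CDK6 and then cyclin E with CDK2 release E2F transcription factors from retinoblastoma proteins. E2F factors switch on the genes that load the MCM helicase at origins, make nucleotides and build the replication fork. Later, cyclin A and cyclin B with CDK1, the kinases PLK1 and Aurora, and the factor FOXM1 drive mitosis. Many mitotic genes carry a cell cycle homology region (CHR) and CCAAT boxes near the start site, through which the DREAM and MMB complexes with MuvB and NF-Y act in human cells. Both classes are known as markers of proliferation in tumours.

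Known promoter letters were counted in each class, as a description without a test. Of the 52 members, 40 matched a RefSeq promoter window of 250 bases before to 50 bases after the start (GRCh38.p14, position 0 is the first transcribed base), and AURKA, BIRC5, CCND1, CCNE2, CDK2, FOXM1, HMGB2, MCM4, MCM5, TPX2, TTK and UBE2C did not. The letters TTTCCCGC, TTTCGCGC, TTTGCCGC or TTTGGCGC, a core bound by E2F factors, were looked for on both strands. They stood in 15 of 21 G1/S genes (71.4%), in 3 of 18 G2/M genes (16.7%) and in 3.99% of the 27305 genes with a window (3.31% of all 35116 windows). The CHR letters TTTGAA or TTCGAA stood in 2 of 21 G1/S genes (9.52%), in 13 of 18 G2/M genes (72.2%) and in 19.5% of genes (16.4% of windows). CCAAT, which overlapped an E2F match in MCM7, stood in 15 of 21 G1/S genes (71.4%), 16 of 18 G2/M genes (88.9%) and 39.7% of genes (34.6% of windows). The median first base lay at -37 for E2F letters in G1/S genes and at -29 for CHR letters in G2/M genes. A match is a run of letters, not a shown binding site.

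**Figure D1:**
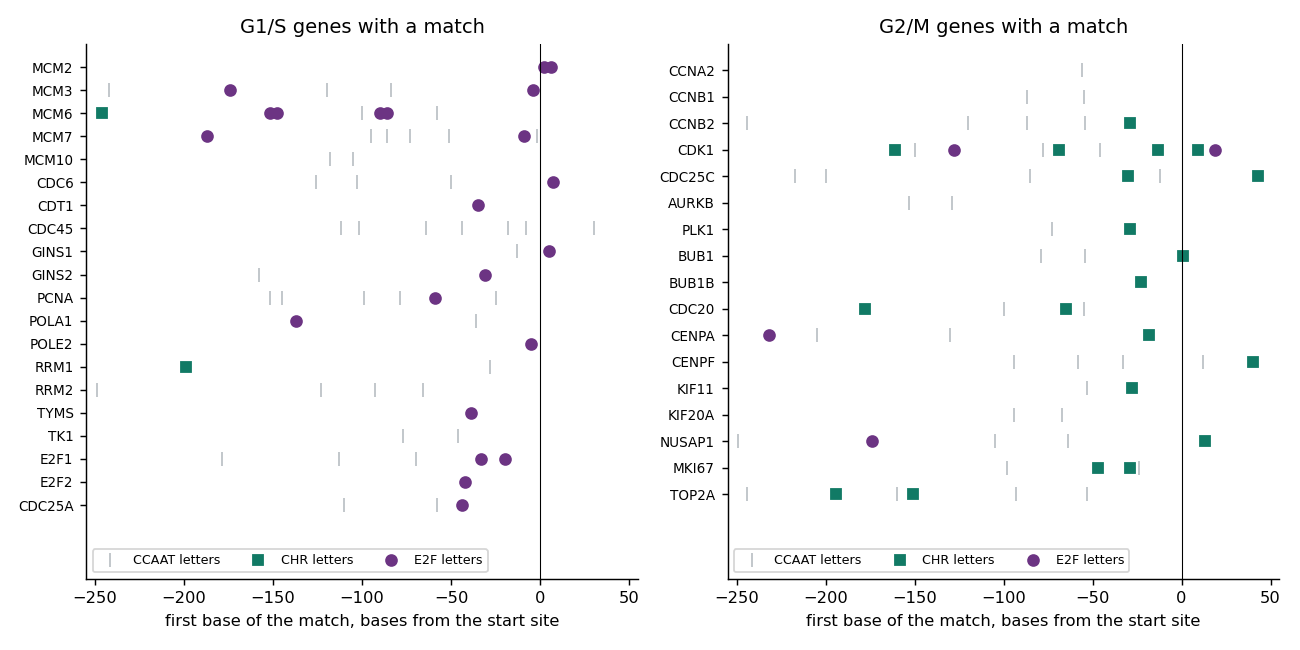
Positions of E2F, CHR and CCAAT letters in the promoter windows of the members, by class. Each mark is 1 match, the horizontal axis is the distance in bases from the start site, and each line is 1 gene, with the matches of all its windows; genes with no match are not drawn. E2F letters appear in 15 of 21 G1/S genes and CHR letters in 13 of 18 G2/M genes.

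Stretches of 150 bases, 130 before the start and 20 from it, are shown for 8 members picked as examples that carry the letters of their class. Matched letters are in capitals (RefSeq, GRCh38.p14, 5′ to 3′ on the strand of the gene). For a gene with several windows, the window with the most E2F or CHR matches in the stretch is shown. Other members named below lacked such letters: RRM2, RRM1, TK1, MCM10 and CCNE1 had no E2F match, and KIF20A, AURKB, CCNB1 and CENPE had no CHR match. The G1/S examples carry E2F letters: MCM2 at chr3:127598281-127598430 (plus strand), with matches on both strands that overlap, MCM7 at chr7:100101378-100101527 (minus strand, 1 of 3 windows), CDT1 at chr16:88803659-88803808 (plus strand) and GINS1 at chr20:25407543-25407692 (plus strand). The G2/M examples carry TTTGAA: CCNB2 at chr15:59105016-59105165 (plus strand), PLK1 at chr16:23678759-23678908 (plus strand), BUB1B at chr15:40160939-40161088 (plus strand) and CDC25C at chr5:138331785-138331934 (minus strand, 1 of 4 windows). ATTGG in capitals is CCAAT on the other strand.
MCM2: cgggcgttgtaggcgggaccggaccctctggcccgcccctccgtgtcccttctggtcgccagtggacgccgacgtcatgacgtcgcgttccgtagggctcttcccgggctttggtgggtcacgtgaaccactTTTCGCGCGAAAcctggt
MCM7: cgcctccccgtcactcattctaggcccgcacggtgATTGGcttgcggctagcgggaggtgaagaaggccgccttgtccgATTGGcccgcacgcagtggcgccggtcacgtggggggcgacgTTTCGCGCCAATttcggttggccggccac
CDT1: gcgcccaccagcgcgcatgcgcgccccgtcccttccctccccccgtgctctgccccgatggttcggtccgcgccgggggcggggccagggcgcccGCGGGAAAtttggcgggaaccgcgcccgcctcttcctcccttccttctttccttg
GINS1: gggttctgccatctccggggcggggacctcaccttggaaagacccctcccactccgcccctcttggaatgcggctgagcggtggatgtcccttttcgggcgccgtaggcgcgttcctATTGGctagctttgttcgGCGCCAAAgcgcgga
CCNB2: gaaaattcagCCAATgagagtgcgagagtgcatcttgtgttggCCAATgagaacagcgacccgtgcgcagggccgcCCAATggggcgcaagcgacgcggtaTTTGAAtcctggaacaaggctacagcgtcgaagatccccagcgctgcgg
PLK1: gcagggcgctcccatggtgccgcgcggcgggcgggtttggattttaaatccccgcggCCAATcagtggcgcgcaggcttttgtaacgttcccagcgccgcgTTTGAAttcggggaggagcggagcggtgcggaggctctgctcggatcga
BUB1B: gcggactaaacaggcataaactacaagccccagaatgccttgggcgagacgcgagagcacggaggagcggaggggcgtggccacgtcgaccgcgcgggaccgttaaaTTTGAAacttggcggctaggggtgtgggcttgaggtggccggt
CDC25C: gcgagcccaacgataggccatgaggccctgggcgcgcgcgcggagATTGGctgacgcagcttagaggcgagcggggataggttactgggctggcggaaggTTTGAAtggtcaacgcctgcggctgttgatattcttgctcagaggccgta
In the stretches of CCNB2, PLK1, BUB1B and CDC25C, TTTGAA began at -29, -29, -23 and -30. CCNB2 held CCAAT at -120, -87 and -54, PLK1 at -73 and CDC25C at -85.

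Values are deposited normalised counts per gene, with libraries of 21.02 to 55.68 M reads; they are not per length, so levels are compared between libraries and not between genes. The 3 lines were kept apart by genes found in 1 line only (23 for FaDu, 26 for SiHa and 29 for HCT116), and 9 libraries stood apart and are given separately. FaDu pH 7.4 replicates 2 to 5 held HCT116 genes at 80.4, 30.6, 42.7 and 62.3% of the HCT116 level and FaDu genes at 10.9, 67.3, 50.8 and 28.0% of the FaDu level. HCT116 pH 6.5 replicates 5 to 7 held SiHa genes at 37.5, 102 and 104% of the SiHa level and HCT116 genes at 58.8, 2.12 and 0.628% of the HCT116 level. SiHa pH 7.4 replicates 6 and 7 held SiHa genes at 72.0 and 64.2%, where the other 3 pH 7.4 libraries held 77.8 to 83.3%. Genes of the other lines reached at most 0.0734% there, and the libraries held a sum of 8 mesenchyme markers of 8601 and 9835 normalised counts, where the other SiHa libraries had at most 4255. The genes of each line were chosen from the FaDu pH 6.5, SiHa pH 6.5 and HCT116 pH 7.4 libraries. They were to reach 1% or less there in the other lines, and levels are relative to the own-line mean there. In the remaining 21 libraries, genes of another line reached at most 0.0737%, in FaDu pH 6.5 replicate 4, where that choice keeps values low. Among those of the 21 not used for the choice, the maximum was 0.04655%, for SiHa genes in HCT116 pH 6.5 replicate 1. At pH 6.5 and at pH 7.4 these 21 left 5 and 3 libraries of SiHa, 5 and 1 of FaDu, and 2 and 5 of HCT116. The FaDu library at pH 7.4 is alone and is assumed to vary like the pH 6.5 libraries.

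Differences are log2(normalised count + 1) at pH 6.5 minus pH 7.4, with the standard error after ±, tested with limma over all genes whose mean reached 10 in the higher of the pH groups, and called where the p adjusted after Benjamini and Hochberg was under 0.05. All 52 members passed that filter in each line. The median difference over all genes tested was -0.01 in each line. In bulk RNA, more dividing cells and more RNA of these genes per cell cannot be told apart. By a GENCODE annotation of another build than the counts, 15 members share exon bases with another gene and are uncertain to that extent. Strand counting is not given in the sources used here. It bears on overlaps on opposite strands, as in TYMS (ENOSF1), CCNE2 (INTS8), KIF20A (CDC23), CDC25C (FAM53C), MCM2 (TPRA1), MCM7 (AP4M1) and PLK1 (ERN2). BUB1B (BUB1B-PAK6), NUSAP1 (AC087721.2) and RRM2 (AC007240.1) overlap on the same strand, which strand counting would not separate.

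In SiHa, replication and mitotic genes were both higher at pH 6.5, the mitotic genes with the larger median. Of the 52 members 42 rose, where 15.0% of all genes tested did, and 0 fell, where 16.2% of all genes did; limma also had 0 lower at an unadjusted p under 0.05, as had edgeR and DESeq2. The 20 of 25 G1/S genes that rose belong to a class with a median difference of 0.64, and the 21 of 25 G2/M genes to a class with a median of 0.88. Groups did not overlap, with pH 6.5 above, in 38 members, where 17.1% of all genes did so. Cyclin E1 (CCNE1, -0.23), MCM4 (0.25), MCM6 (0.07), MCM10 (0.31), RRM1 (0.23), CENPA (0.48), KIF11 (0.42), BUB1 (0.56), MKI67 (0.66) and CCND1 (-1.32) did not pass the test.

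**Figure D2:**
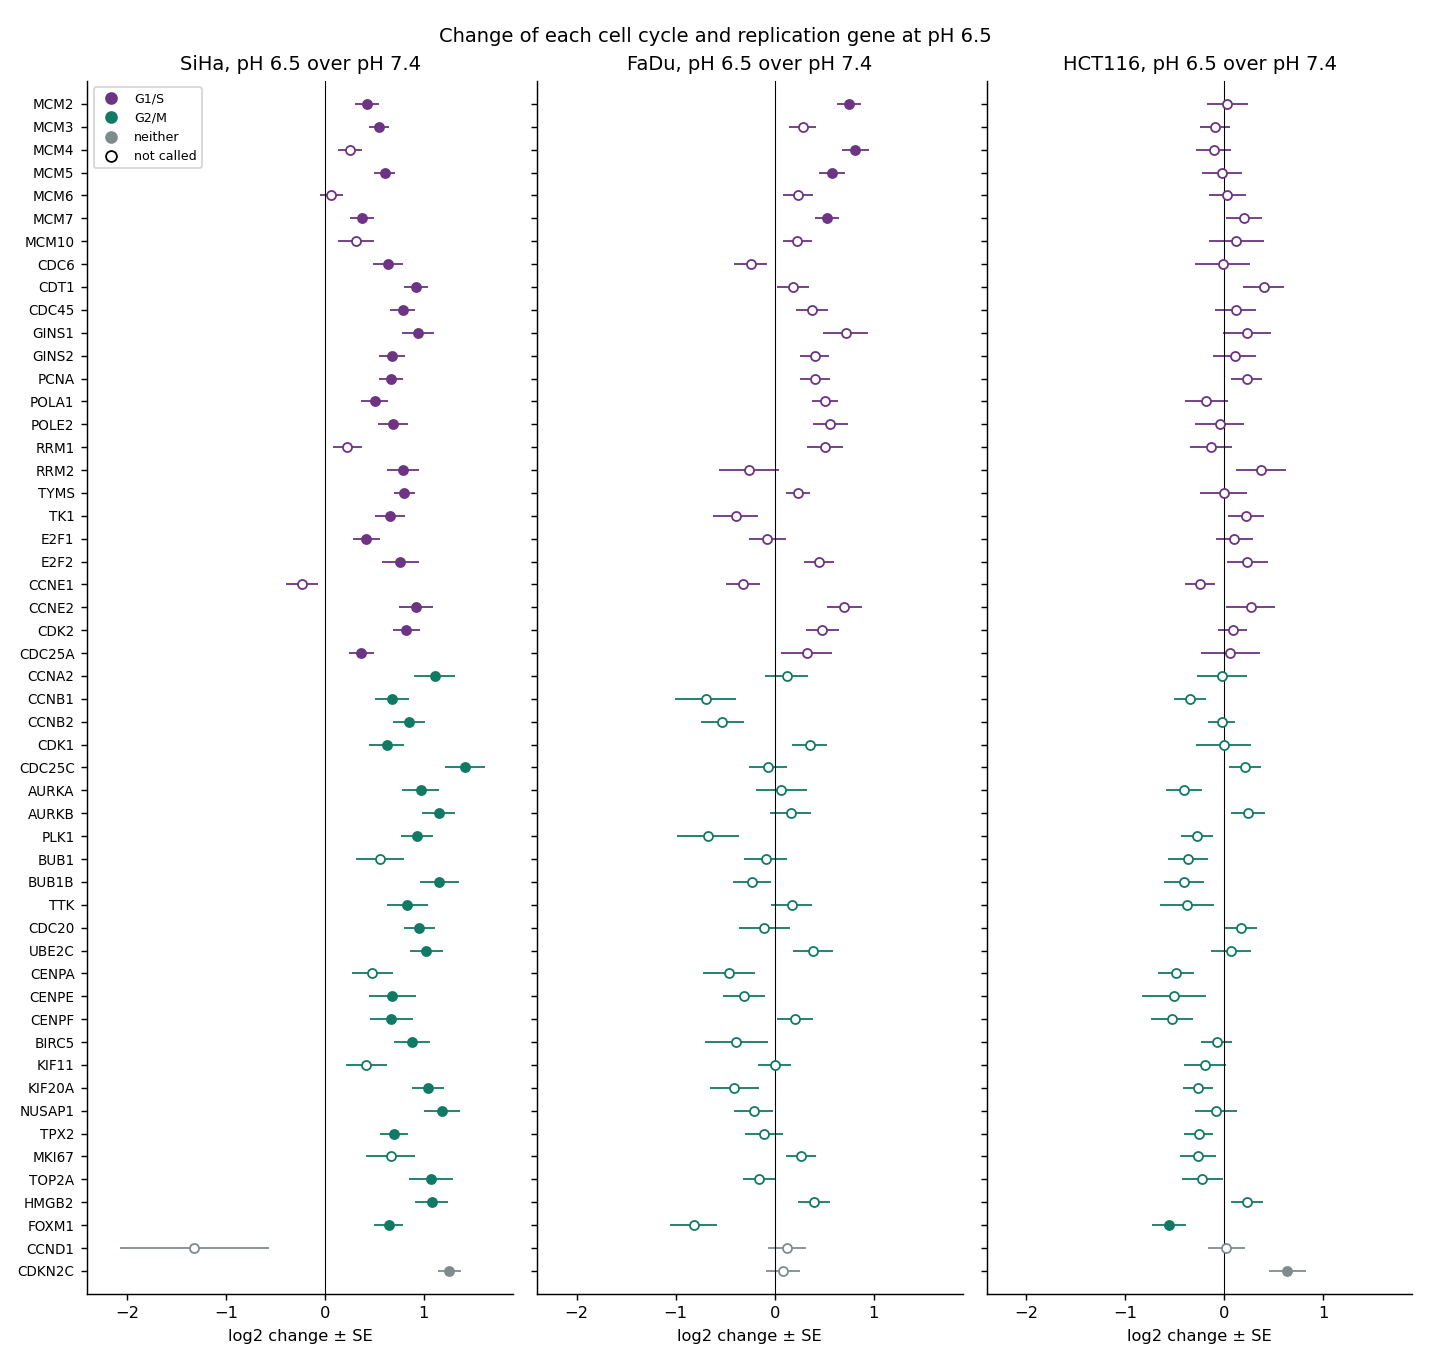
Log2 difference (pH 6.5 minus pH 7.4, with standard error) of each of the 52 members in SiHa, FaDu and HCT116. Filled points passed limma at an adjusted p under 0.05, which 42 did in SiHa, 4 in FaDu and 2 in HCT116.

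Among the SiHa genes that license origins and unwind DNA, 9 of 12 rose and the median was 0.57. GINS1, a subunit of the GINS complex of the replicative helicase (ENSG00000101003), had 1729, 2213, 1693, 1947 and 2390 normalised counts at pH 6.5, against 785, 1264 and 1096 at pH 7.4. Every pH 6.5 library stood above every pH 7.4 library, and the difference was 0.94 ± 0.16 (limma adjusted p = 0.00198). CDT1, which loads the MCM helicase at origins (ENSG00000167513), had 8060, 7357, 5863, 6748 and 7809 normalised counts at pH 6.5, against 3252, 3940 and 4182 at pH 7.4. The groups stood apart here too, by 0.92 ± 0.12 (limma adjusted p = 0.00045). The helicase subunits themselves moved by less: MCM5 rose by 0.60 ± 0.10, MCM3 by 0.55 ± 0.10, MCM2 by 0.43 ± 0.12 and MCM7 by 0.37 ± 0.12. MCM2 (ENSG00000073111) had 15239, 13546, 14097, 15202 and 12791 normalised counts at pH 6.5, against 8361, 11635 and 11952 at pH 7.4, with the lowest pH 7.4 value in replicate 1. Without that replicate the difference of MCM2 was 0.26 (limma adjusted p = 0.0886) and that of MCM7 was 0.24 (limma adjusted p = 0.157).

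Fork and nucleotide genes followed. PCNA, the sliding clamp of the polymerases (ENSG00000132646), had 14537, 15251, 12125, 12832 and 13506 normalised counts at pH 6.5, against 6927, 9380 and 9672 at pH 7.4. The groups did not overlap, with a difference of 0.67 ± 0.12 (limma adjusted p = 0.00268), and POLA1 (0.50) and POLE2 (0.69), subunits of polymerases alpha and epsilon, rose as well. RRM2, the small subunit of ribonucleotide reductase that makes deoxynucleotides (ENSG00000171848), had 15132, 16563, 13181, 15099 and 16302 normalised counts at pH 6.5, against 6250, 10735 and 10198 at pH 7.4. It rose by 0.79 ± 0.16 (limma adjusted p = 0.00466) with no overlap. Its large subunit RRM1 differed by 0.23 ± 0.14 (limma adjusted p = 0.248). Thymidylate synthase (TYMS, 0.80) and thymidine kinase (TK1, 0.66) rose.

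Of the 6 switch genes of G1/S, 5 rose in SiHa. CCNE2, cyclin E2 (ENSG00000175305), had 461, 586, 534, 601 and 643 normalised counts at pH 6.5, against 222, 351 and 334 at pH 7.4, a difference of 0.92 ± 0.17 (limma adjusted p = 0.00266) with no overlap. CDK2, its kinase partner (ENSG00000123374), had 3568, 3787, 3209, 3642 and 3840 normalised counts at pH 6.5, against 1556, 2338 and 2323 at pH 7.4, and rose by 0.82 ± 0.13 (limma adjusted p = 0.00139). Both stood clear of the pH 7.4 libraries. E2F1, the activator of the S phase genes (ENSG00000101412), had 7219, 6824, 5239, 5663 and 7518 normalised counts at pH 6.5, against 4112, 5029 and 5395 at pH 7.4. Its groups overlapped by 1 library, and its difference of 0.42 ± 0.14 passed the test narrowly (limma adjusted p = 0.0385, and 0.161 without pH 7.4 replicate 1).

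Mitotic genes showed the largest differences of the 2 classes in SiHa. CDC25C, the phosphatase that activates CDK1 at the entry to mitosis (ENSG00000158402), had 1833, 1915, 1571, 1647 and 1781 normalised counts at pH 6.5, against 416, 875 and 775 at pH 7.4. No pH 7.4 library came near the pH 6.5 libraries, and the difference was 1.41 ± 0.20 (limma adjusted p = 0.000669). NUSAP1, which binds spindle microtubules (ENSG00000137804), had 9078, 9849, 9051, 10198 and 12169 normalised counts at pH 6.5, against 2994, 5565 and 5112 at pH 7.4, a rise of 1.19 ± 0.18 (limma adjusted p = 0.001). BUB1B, the spindle checkpoint protein BubR1 (ENSG00000156970), had 3442, 4938, 4352, 4114 and 4856 normalised counts at pH 6.5, against 1313, 2630 and 2080 at pH 7.4, a rise of 1.16 ± 0.20 (limma adjusted p = 0.00173). AURKB, the kinase of the chromosomal passenger complex (ENSG00000178999), had 2845, 3939, 2540, 2748 and 3476 normalised counts at pH 6.5, against 1074, 1559 and 1576 at pH 7.4, a rise of 1.15 ± 0.17 (limma adjusted p = 0.000735). In none of the 4 did a pH 7.4 library reach the lowest pH 6.5 library.

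All 5 genes of the mitotic cyclins, CDK1 and CDC25C, all 3 mitotic kinases and both genes of ubiquitination at mitotic exit rose in SiHa, with medians of 0.85, 0.97 and 0.99. PLK1, the kinase of spindle poles and kinetochores (ENSG00000166851), had 6699, 7140, 6205, 5891 and 5083 normalised counts at pH 6.5, against 2360, 3733 and 3844 at pH 7.4, and rose by 0.93 ± 0.16 (limma adjusted p = 0.0021). KIF20A, a kinesin of cytokinesis (ENSG00000112984), had 8924, 10201, 10251, 9609 and 9067 normalised counts at pH 6.5, against 3204, 5693 and 5551 at pH 7.4, and rose by 1.04 ± 0.17 (limma adjusted p = 0.00124). Neither gene overlapped between the groups. FOXM1, the transcription factor of G2/M genes (ENSG00000111206), had 3674, 4272, 3953, 3981 and 4440 normalised counts at pH 6.5, against 1913, 3043 and 2995 at pH 7.4, and rose by 0.64 ± 0.14 (limma adjusted p = 0.00739). CDK1, the mitotic kinase (ENSG00000170312), had 4537, 5353, 4494, 4919 and 5015 normalised counts at pH 6.5, against 2106, 4029 and 3683 at pH 7.4, and CCNB1, cyclin B1 (ENSG00000134057), had 8827, 10298, 9403, 8270 and 7247, against 3928, 6414 and 6496. CDK1 rose by 0.62 ± 0.18 and CCNB1 by 0.68 ± 0.17 (limma adjusted p = 0.0219 and 0.0117), with no overlap. Without pH 7.4 replicate 1 the differences of FOXM1, CDK1 and CCNB1 were 0.43, 0.33 and 0.44 and stayed past the threshold.

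MKI67, the proliferation antigen Ki-67 (ENSG00000148773), had 13646, 21327, 19509, 19620 and 28204 normalised counts at pH 6.5, against 8158, 17264 and 14138 at pH 7.4. The lowest pH 6.5 library lay below 2 of the pH 7.4 libraries, and the difference of 0.66 ± 0.25 missed the threshold (limma adjusted p = 0.0634). The remaining chromatin genes, TOP2A (topoisomerase II alpha, 1.07) and HMGB2 (1.08), rose. Centromere genes had a median of 0.68, with 3 of 4 past the test, of which CENPE and CENPF overlapped between the groups.

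**Figure D3:**
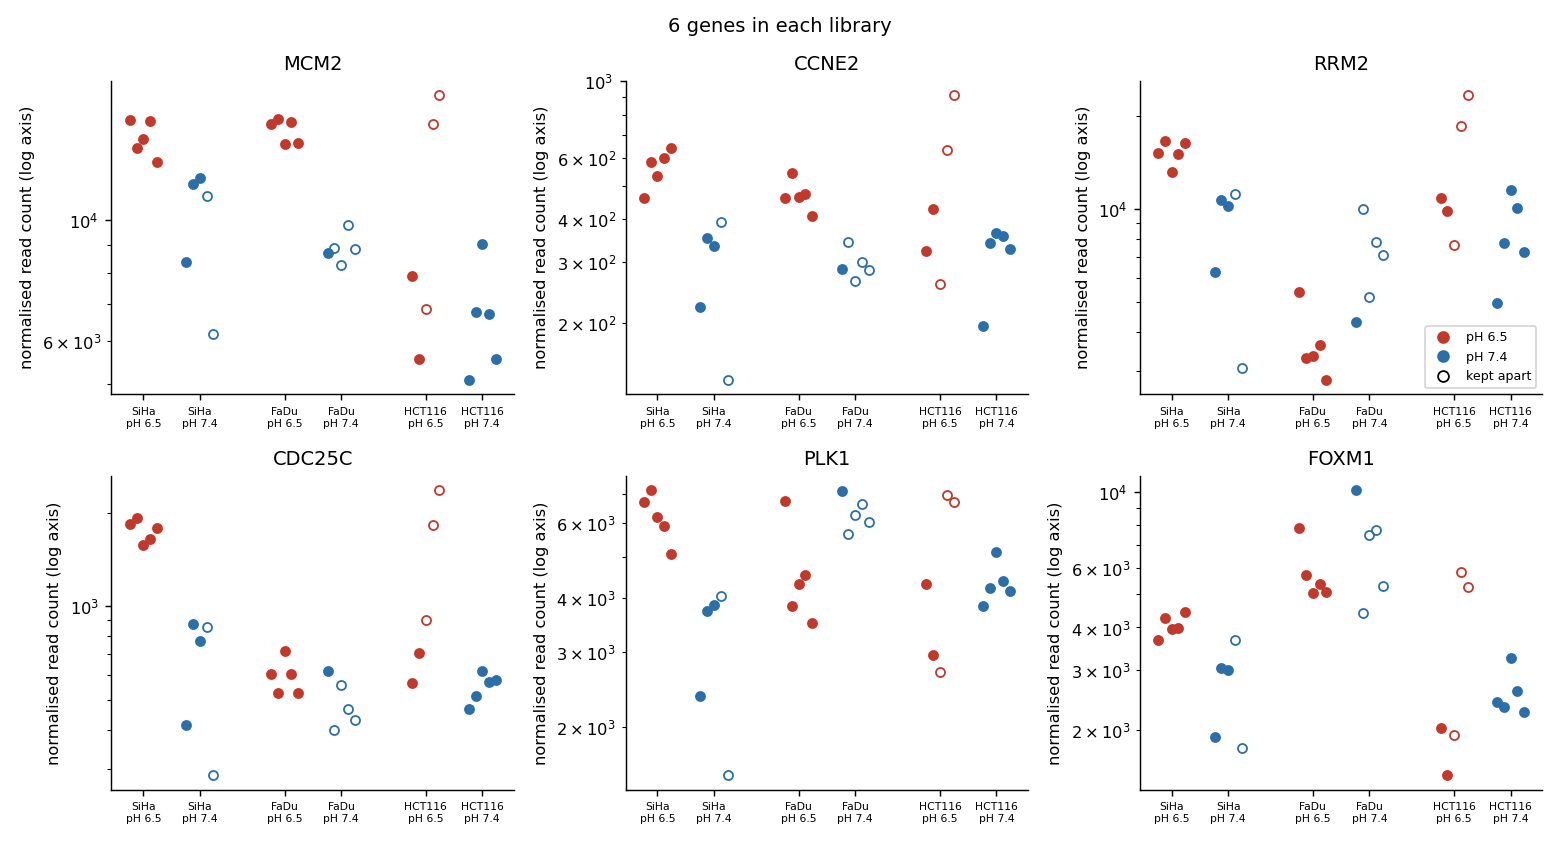
Normalised counts (log axis) of MCM2, CCNE2, RRM2, CDC25C, PLK1 and FOXM1 in each library, pH 6.5 left of pH 7.4 in each line; filled points are the 21 libraries compared and open points the 9 kept apart. In SiHa the 5 pH 6.5 libraries lie above the 3 compared at pH 7.4 for all 6 genes; FOXM1 lies below its pH 7.4 libraries in HCT116.

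The 2 regulators of G1 differed in SiHa. CDKN2C, the p18 inhibitor of CDK4 and CDK6 (ENSG00000123080), had 7680, 6513, 6090, 6754 and 8012 normalised counts at pH 6.5, against 2529, 3312 and 2973 at pH 7.4. It rose by 1.26 ± 0.12 (limma adjusted p = 7.13e-05) with no overlap. CCND1, cyclin D1 (ENSG00000110092), had 146, 420, 134, 64.6 and 18.8 normalised counts at pH 6.5, against 339, 316 and 149 at pH 7.4. The pH 6.5 libraries spread on both sides of the pH 7.4 libraries, and the difference of -1.32 ± 0.75 did not pass the test (limma adjusted p = 0.203).

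SiHa pH 7.4 replicate 1 was the lowest of the 8 libraries in 24 of 25 G1/S genes and in all 25 G2/M genes, and it had the highest CDKN1A and BTG2 of the line, 18613 and 2365 normalised counts. Without it 15 G1/S and 19 G2/M genes rose, with medians of 0.48 and 0.66. The share of all genes that rose in that fit was not counted. Leaving out each library in turn kept 35 of the 42 calls every time and lost CDC25A, CENPE, CENPF, E2F1, MCM2, MCM7 or POLA1 in some, with adjusted p up to 0.201. The summed level of 10 squamous markers was 38851 to 108573 normalised counts in SiHa at pH 6.5 and 97837 to 107690 at pH 7.4, and 5 of 8 tested were lower and 0 higher; the sum of 8 mesenchyme markers was 1132 to 3414 against 2939 to 4255, with 3 of 7 tested lower and 0 higher. Their part in the result was not tested. In SiHa, DSC3 was at 0 in 3 of 5 libraries at pH 6.5 and in 1 of 3 at pH 7.4, and DSG3 and TP63 were each at 0 in 1 library at pH 6.5.

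In FaDu, the members that passed the test were all subunits of the MCM helicase. Of 52 members 4 rose (MCM4, MCM2, MCM5 and MCM7), where 4.24% of all genes tested did, and 0 fell, where 3.12% of all genes did. The unadjusted limma counts were 14 higher and 2 lower, edgeR called 4 higher and 0 lower, and DESeq2 called 8 higher and FOXM1 lower. Shares of all genes at an unadjusted p, by edgeR or by DESeq2 were not counted, here or for the other lines and lists. G1/S genes had a median of 0.40, with 20 of 25 above 0, and G2/M genes a median of -0.10, with 15 of 25 below 0. The single pH 7.4 library lay outside the range of the 5 pH 6.5 libraries in 33 members. It lay below all 5 in 23 members, of which 19 were G1/S genes, and 27.3% of all genes lay so. In the rest of the 33 it lay above all 5, and the share of all genes that lay so was not counted. Of the 13 G2/M genes among the 33, it lay below in 4 and above in the rest.

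MCM4, a subunit of the helicase ring (ENSG00000104738), had 20479, 20667, 20060, 21790 and 17927 normalised counts in FaDu at pH 6.5, against 11466 at pH 7.4, a rise of 0.81 ± 0.14 (limma adjusted p = 0.0226). MCM2 had 15018, 15345, 13783, 15092 and 13834 normalised counts in FaDu at pH 6.5, against 8679 at pH 7.4, a rise of 0.75 ± 0.12 (limma adjusted p = 0.0208). For both subunits the pH 6.5 libraries lay close together and well above the single library at pH 7.4. MCM5 (ENSG00000100297) had 8700, 9820, 8433, 8734 and 9532 normalised counts at pH 6.5, against 6038 at pH 7.4, a rise of 0.58 ± 0.13 (limma adjusted p = 0.0413). MCM7 (ENSG00000166508) had 18854, 17254, 17761, 18233 and 16639 normalised counts at pH 6.5, against 12250 at pH 7.4, a rise of 0.53 ± 0.12 (limma adjusted p = 0.0447). These subunits of the same ring did not overlap between the groups either, while MCM6 differed by 0.24 ± 0.15 and MCM3 by 0.28 ± 0.14, neither past the test. Each of the 4 calls was lost on leaving out pH 6.5 replicate 2, 3, 4 or 5, except MCM4 without replicate 5. The rises in those fits were 0.52 to 0.81. Without pH 6.5 replicate 1 further members passed, G1/S genes in both directions and G2/M genes lower. The share of all genes that passed in that fit was not counted.

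Other FaDu G1/S genes were above the pH 7.4 library without passing the test. GINS1 had 3320, 2767, 3167, 3362 and 2230 normalised counts at pH 6.5, against 1786 at pH 7.4 (0.72 ± 0.22, limma adjusted p = 0.0928), and CCNE2 had 461, 544, 464, 471 and 409, against 287 (0.70 ± 0.18, limma adjusted p = 0.0579). PCNA had 9839, 8472, 8662, 8433 and 7516 normalised counts at pH 6.5, against 6462 at pH 7.4 (0.40 ± 0.15, limma adjusted p = 0.135). RRM2 went the other way, with 5403, 3320, 3359, 3645 and 2808 normalised counts at pH 6.5, against 4320 at pH 7.4 (-0.26 ± 0.30, limma adjusted p = 0.615). Among the nucleotide genes the median was -0.01, and TK1 was at -0.39 ± 0.23 (limma adjusted p = 0.299). E2F1 had a difference of -0.08 ± 0.19 (limma adjusted p = 0.826).

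Mitotic genes of FaDu differed in both directions from the single pH 7.4 library, 15 of 25 below 0 and 10 above 0, with a median of -0.10. FOXM1 had 7860, 5687, 5043, 5382 and 5083 normalised counts at pH 6.5, against 10101 at pH 7.4, a difference of -0.82 ± 0.24 that missed the threshold (limma adjusted p = 0.077). CCNB1 had 10957, 6304, 8336, 7874 and 5851 normalised counts at pH 6.5, against 12428 at pH 7.4 (-0.70 ± 0.31, limma adjusted p = 0.187). PLK1 had 6759, 3841, 4319, 4521 and 3497 normalised counts at pH 6.5, against 7123 at pH 7.4 (-0.67 ± 0.31, limma adjusted p = 0.204). In each of these replicate 1 was the highest pH 6.5 library and still below the pH 7.4 library. CDK1 stood above it, with 8140, 6431, 7911, 7363 and 6106 normalised counts at pH 6.5, against 5586 at pH 7.4 (0.36 ± 0.18, limma adjusted p = 0.24). CDC25C, with 606, 526, 715, 606 and 527 at pH 6.5 against 620 at pH 7.4, and BUB1B, with 3242, 2400, 3013, 2974 and 2398 against 3268, differed by -0.07 and -0.23. Cyclin D1 had 20868, 27295, 25825, 26303 and 30128 normalised counts at pH 6.5, against 23713 at pH 7.4, and CDKN2C had 1580, 2142, 1794, 1670 and 1856, against 1697, both with overlap. The summed squamous markers were 304864 to 471144 normalised counts in FaDu at pH 6.5 and 542598 at pH 7.4, with all 10 above 3 reads in every library, and 2 of 10 were lower; their part in the result was not tested.

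In HCT116, 1 member rose, CDKN2C, where 9.11% of all genes tested did, and 1 fell, FOXM1, where 11.1% of all genes did. G1/S genes had a median of 0.09 with 0 of 25 past the test in either direction, 0 at an unadjusted limma p under 0.05, and 0 by edgeR and DESeq2. G2/M genes had a median of -0.26, and 20 of 25 were below 0. The groups stood apart with pH 6.5 above in 1 member, where 17.4% of all genes did so.

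FOXM1 had 2032 and 1471 normalised counts in HCT116 at pH 6.5, against 2417, 2340, 3257, 2602 and 2254 at pH 7.4. Both pH 6.5 libraries lay below all 5 at pH 7.4, and it fell by 0.56 on the log2 scale, with a standard error of 0.17 (limma adjusted p = 0.037). CDKN2C had 286 and 325 normalised counts at pH 6.5, against 158, 197, 200, 205 and 226 at pH 7.4, with no overlap and a rise of 0.64 ± 0.19 (limma adjusted p = 0.0333). Both calls rested on few libraries: without pH 6.5 replicate 3 the FOXM1 difference was -0.33 (limma adjusted p = 0.279) and CDKN2C had an adjusted p of 0.148, and leaving out pH 6.5 replicate 1 (CDKN2C) or pH 7.4 replicate 3, 5 or 6 (both genes) also ended the call.

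Of the other 24 mitotic genes of HCT116, 23 overlapped between the groups, and the share of all genes with pH 6.5 wholly below was not counted. The exception was CENPA, the histone H3 variant of centromeres, with 591 and 667 normalised counts at pH 6.5, against 697, 797, 1111, 881 and 983 at pH 7.4 (-0.49 ± 0.18, limma adjusted p = 0.0769). BUB1B had 2373 and 2806 normalised counts at pH 6.5, against 2328, 3301, 4326, 3789 and 3749 at pH 7.4 (-0.41 ± 0.20, limma adjusted p = 0.178), and CCNB1 had 5720 and 5506, against 5326, 7357, 8038, 7188 and 8110 (-0.34 ± 0.16, limma adjusted p = 0.151). PLK1 had 4321 and 2939 normalised counts at pH 6.5, against 3829, 4218, 5130, 4394 and 4146 at pH 7.4 (-0.28 ± 0.16, limma adjusted p = 0.252). KIF20A had 2109 and 2269, against 2149, 2414, 2838, 2787 and 3069 (-0.27 ± 0.15, limma adjusted p = 0.236). The centromere genes had a median of -0.50 and the spindle checkpoint genes one of -0.37. CDC25C was the opposite, with 565 and 705 normalised counts at pH 6.5, against 466, 512, 616, 569 and 579 at pH 7.4 (0.21 ± 0.16, limma adjusted p = 0.397). Without pH 7.4 replicate 1, the lowest library of the line in 23 of 25 G1/S and 16 of 25 G2/M genes, limma called 9 G2/M genes lower (AURKA, FOXM1, TTK, CENPA, CENPF, CCNB1, CENPE, BUB1B and BUB1). The share of all genes called lower in that fit was not counted.

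Replication genes of HCT116 spread around no difference. MCM2 had 7902 and 5557 normalised counts at pH 6.5, against 5079, 6775, 9025, 6705 and 5547 at pH 7.4 (0.03 ± 0.21, limma adjusted p = 0.942), and MCM7 had 18296 and 13046, against 10754, 13491, 17315, 14286 and 12231 (0.20 ± 0.18, limma adjusted p = 0.474). CDT1 had the largest G1/S difference, with 6066 and 3669 normalised counts at pH 6.5, against 2974, 3339, 4525, 4073 and 3217 at pH 7.4 (0.40 ± 0.20, limma adjusted p = 0.195). RRM2 had 10841 and 9852, against 4992, 7778, 11538, 10070 and 7290 (0.37 ± 0.25, limma adjusted p = 0.33). Cyclin D1 had 22025 and 12324 normalised counts at pH 6.5, against 17249, 15977, 17544, 15760 and 14771 at pH 7.4, so that its pH 6.5 libraries lay on both sides of the pH 7.4 libraries. The sum of 10 colon markers was 10443 to 11183 normalised counts in HCT116 at pH 6.5 and 14569 to 16356 at pH 7.4, with CDX1 and FABP1 at 0 in all 7 libraries; 4 of 7 tested were lower and 1 was higher. The sum of 10 squamous markers was 9573 to 16630 against 12373 to 21411, with 4 of 8 tested higher and 1 lower, and the part of either list in the result was not tested.

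**Figure D4:**
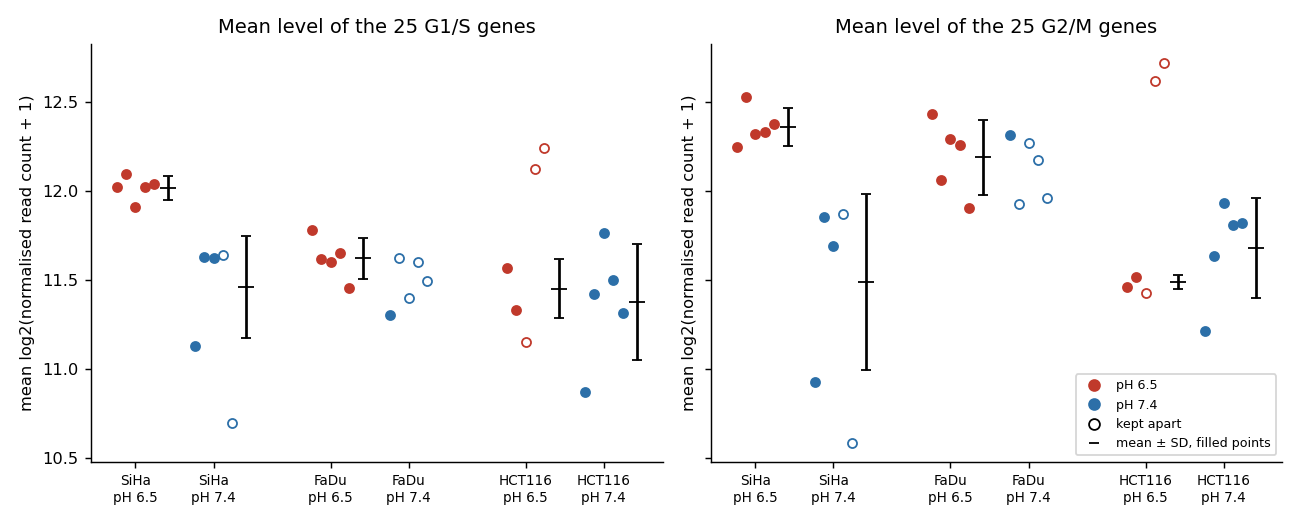
Mean log2(normalised count + 1) over the 25 G1/S and the 25 G2/M genes in each library, pH 6.5 left of pH 7.4 in each line; filled points are libraries compared, open points those kept apart, and bars the mean with SD of the libraries compared. At pH 6.5 and pH 7.4 the G1/S means were 12.02 and 11.46 in SiHa, 11.62 and 11.30 in FaDu, and 11.45 and 11.37 in HCT116, and the G2/M means 12.36 and 11.49, 12.19 and 12.31, and 11.49 and 11.68 in the same lines.

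Whether the pH difference itself differed between lines was tested in 1 fit over the 21 libraries, with a limma F-test of the interaction. It was called for 26 of 52 members, where 33.1% of all genes were, and these were 20 of 25 G2/M genes, 5 of 25 G1/S genes (MCM3, MCM4, TYMS, TK1 and CDK2) and CDKN2C. The SiHa difference exceeded that of HCT116 in 28 members, where 11.9% of all genes did so: 22 G2/M genes, 5 G1/S genes and CDKN2C. It exceeded that of FaDu in 15 members, where 7.33% of all genes did so: 13 G2/M genes, 1 G1/S gene (TK1) and CDKN2C. The HCT116 difference was below that of FaDu in 1 member, MCM4 (-0.92, limma adjusted p = 0.0189), where 8.30% of all genes were. The median of SiHa minus HCT116 was 0.52 over G1/S genes and 1.02 over G2/M genes, and that of SiHa minus FaDu was 0.22 and 0.99; both use the same SiHa libraries, and the FaDu difference rests on 1 library at pH 7.4.

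The 5 members with the smallest interaction p were all mitotic. For KIF20A, the SiHa difference was 1.04, the FaDu difference -0.41 and the HCT116 difference -0.27, so that SiHa minus HCT116 was 1.31 ± 0.26 and SiHa minus FaDu 1.45 ± 0.30 (limma adjusted p = 0.000941 and 0.00308, F-test 0.000559). FOXM1 differed by 0.64, -0.82 and -0.56 in the same order, with 1.21 ± 0.25 and 1.46 ± 0.29 (limma adjusted p = 0.00142 and 0.00219, F-test 0.000581). It was the one gene among the 5 that passed in opposite directions in 2 lines. BUB1B had 1.57 ± 0.30 and 1.39 ± 0.35 (limma adjusted p = 0.000706 and 0.0112, F-test 0.000884). CDC25C had 1.20 ± 0.27 and 1.48 ± 0.32 (limma adjusted p = 0.00262 and 0.00361, F-test 0.0011). PLK1 had 1.21 ± 0.29 and 1.60 ± 0.34 (limma adjusted p = 0.00418 and 0.00319, F-test 0.00127). Without SiHa pH 7.4 replicate 1 the F-test was called for 14 G2/M genes and 1 G1/S gene. Without HCT116 pH 7.4 replicate 1 it was called for 24 and 15, and without HCT116 pH 6.5 replicate 3 for 18 and 1. The shares of all genes in these fits were not counted.

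The balance of the classes, the mean log2 level of G1/S genes minus that of G2/M genes in each library, is a description without a test. In SiHa it was -0.22, -0.43, -0.41, -0.31 and -0.33 at pH 6.5, against 0.20, -0.22 and -0.07 at pH 7.4, so that it averaged -0.34 ± 0.08 (SD, n = 5) at pH 6.5 and -0.03 ± 0.22 (SD, n = 3) at pH 7.4. The change of -0.31 was in favour of G2/M genes, and was -0.20 without pH 7.4 replicate 1. In FaDu it averaged -0.57 ± 0.12 (SD, n = 5) at pH 6.5, against -1.01 in the single pH 7.4 library, a change of 0.44 in favour of G1/S genes. In HCT116 it was 0.11 and -0.19 at pH 6.5, against -0.34, -0.22, -0.17, -0.31 and -0.50 at pH 7.4, where it averaged -0.31 ± 0.13 (SD, n = 5). Its change of 0.27 was 0.12 without pH 6.5 replicate 1 and 0.42 without replicate 3, and the groups overlapped.

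**Figure D5:**
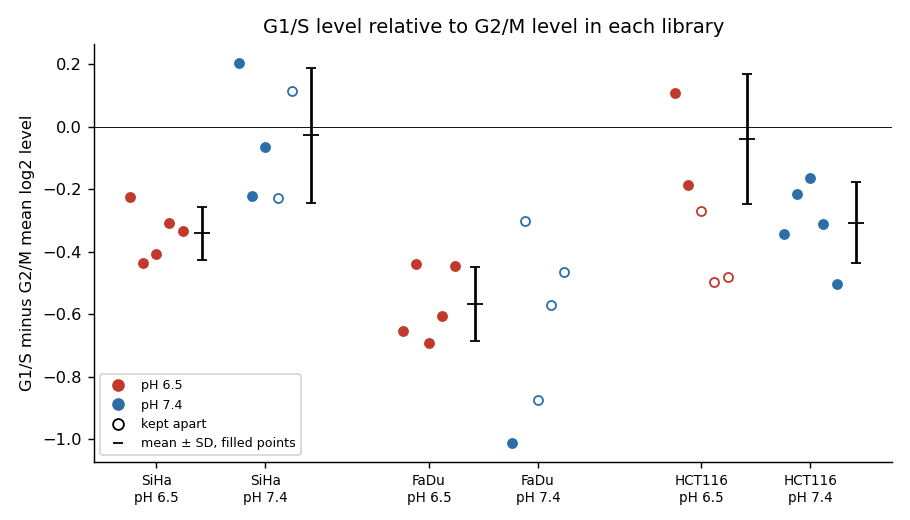
Mean log2 level of G1/S genes minus that of G2/M genes in each library, pH 6.5 left of pH 7.4 in each line; filled points are libraries compared, open points those kept apart. The change of the mean was -0.31 in SiHa, 0.44 in FaDu and 0.27 in HCT116.

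Other genes of the same pathways, taken from lists outside the 52, were counted in the same fits. In SiHa 33 of 45 replication genes and 44 of 54 mitotic genes rose and 0 fell in either list (also 0 lower at an unadjusted p in limma, and by edgeR and DESeq2), with medians of 0.56 and 0.83. Over all genes 15.0% rose and 16.2% fell. The largest were ASF1B, a histone chaperone of replication (1.14), RAD51AP1 (1.13), POLD3 (0.98) and EXO1 (0.98), and NEK2, a centrosome kinase (1.33), CENPI (1.28), KNL1 (1.22) and PTTG1, securin (1.13). NEK2 had 2207, 2902, 2354, 2418 and 2603 normalised counts at pH 6.5, against 697, 1273 and 1083 at pH 7.4, with no overlap. In FaDu 10 of 45 replication genes rose (22.2%, against 4.24% of all genes) and 0 fell (0 lower at an unadjusted p; 3.12% of all genes fell), and 0 of 54 mitotic genes passed in either direction (6 higher and 4 lower at an unadjusted limma p; 0 by edgeR; 2 higher by DESeq2). FANCI, of the Fanconi anaemia repair pathway, had 16516, 21926, 23363, 22612 and 20742 normalised counts in FaDu at pH 6.5, against 6172 at pH 7.4 (1.76, limma adjusted p = 0.00921), and POLD3 (1.10), POLD1 (0.79), both of polymerase delta, and UNG, which removes uracil from DNA (0.79), came next. In HCT116 1 of 45 replication genes rose, RPA2 (0.51), a share of 2.22% where 9.11% of all genes rose. Of its 54 mitotic genes 2 fell, KIF18A (-0.91) and ZWINT (-0.81), a share of 3.70% where 11.1% of all genes fell, and NCAPD2 rose (0.37).

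In SiHa, genes listed as inhibitors or drivers of G1 rose in shares above that of all genes, and fell in shares near or under it. Of 21 inhibitors and pocket proteins 9 rose (42.9%) and 4 fell (19%). Of 13 drivers tested 6 rose (46.2%) and 1 fell (7.69%), where 15.0% of all genes rose and 16.2% fell. MYC had 1751, 2143, 1611, 1390 and 1886 normalised counts in SiHa at pH 6.5, against 3797, 2996 and 3919 at pH 7.4. It fell by 1.03 on the log2 scale (limma adjusted p = 0.00056) without overlap. E2F8 (1.19), CHEK2 (0.87) and MYBL2 (0.85), also listed with the drivers, rose. The names of both lists are labels. E2F8, CHEK2 and MYBL2 are not themselves drivers of G1, and LIN9 is not itself an inhibitor or pocket protein. BTG2, an antiproliferative target of p53, had 470, 406, 345, 353 and 471 normalised counts at pH 6.5, against 2365, 663 and 787 at pH 7.4; it fell by 1.40 (limma adjusted p = 0.00987), and by 0.83 without pH 7.4 replicate 1. E2F5 (-0.93) fell and LIN9 of MuvB (0.78) rose. In FaDu 0 of 21 inhibitors and pocket proteins rose and 1 fell, where 4.24 and 3.12% of all genes did, and 0 of 14 drivers passed (4 higher and 1 lower at an unadjusted limma p; 0 by edgeR; 1 higher by DESeq2). In HCT116 2 of 21 genes listed as inhibitors and pocket proteins rose (9.52%, against 9.11% of all genes). LIN9 (-0.70) was the 1 of that list that fell (4.76%, against 11.1% of all genes). Of the 14 drivers in HCT116, CDK6 rose (0.53), a share of 7.14% that is also near that of all genes.

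CDKN1A, the p21 inhibitor of cyclin-dependent kinases, differed between the lines. It had 8125, 5101, 3853, 2572 and 1607 normalised counts in SiHa at pH 6.5, against 18613, 5953 and 8270 at pH 7.4, with overlap, and fell by 1.41 (limma adjusted p = 0.0444), but the call was lost in 6 of 8 omissions of 1 library; without pH 7.4 replicate 1 the difference was -0.94 (limma adjusted p = 0.194). In FaDu it had 882, 530, 570, 485 and 558 normalised counts at pH 6.5, against 2097 at pH 7.4, and fell by 1.83 (limma adjusted p = 0.0208), a call lost in 4 of 5 omissions of 1 library (adjusted p up to 0.0704). In HCT116 it had 15981 and 12192 normalised counts at pH 6.5, against 8941, 6525, 7014, 6715 and 5313 at pH 7.4, and rose by 1.04 (limma adjusted p = 0.00189) without overlap. The HCT116 difference exceeded that of FaDu by 2.86 ± 0.72 (limma adjusted p = 0.00976), and SiHa minus HCT116 was -2.44 ± 0.58 (limma adjusted p = 0.0042). CDKN1B, the p27 inhibitor, had 2436 and 2126 normalised counts in HCT116 at pH 6.5, against 1354, 1641, 1555, 1564 and 1467 at pH 7.4, and rose by 0.59 (limma adjusted p = 0.0077, and 0.0705 without pH 6.5 replicate 1). The calls of ZWINT, KIF18A, RPA2, NCAPD2, LIN9 and CDK6 in HCT116 and of POLD3, POLD1 and UNG in FaDu were also lost on leaving out some library.

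With all 30 libraries as labelled, 43 members rose in SiHa and 0 fell, where 19.7 and 21.1% of all genes did. In FaDu 18 rose and 5 fell, where 24.0 and 22.3% did, and in HCT116 1 rose and 1 fell, where 8.56 and 9.62% did. The FaDu pH 7.4 libraries kept apart had 333, 875, 703 and 509 normalised counts of CDKN2C, where the other FaDu libraries had 1580 to 2142, and CDKN2C then differed by 1.35 in FaDu (limma adjusted p = 0.0111) against 0.08 without them. The libraries labelled HCT116 pH 6.5 replicates 5 to 7 had 8368, 264 and 102 normalised counts of cyclin D1, where the other HCT116 libraries had 12324 to 22025. With them the FOXM1 difference of HCT116 was 0.14 (limma adjusted p = 0.786), the opposite sign of the value without them. SiHa pH 7.4 replicates 6 and 7 had 1187 and 818 normalised counts of GINS1, against 785 to 1264 in the other pH 7.4 libraries. Over the classes replicate 7 was lower than those libraries. Its mean log2 level was 10.70 for G1/S genes, against 11.13 to 11.63, and 10.58 for G2/M genes, against 10.92 to 11.85. Replicate 6 was at 11.64 and 11.87.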

How the data were processed

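Total RNA of 3 cancer lines was sequenced in 30 libraries. The authors deposited 1 table of normalised counts (a signal scaled per library, 38122 genes); per the submitters' processing notes it was made with bcl2fastq 2.20, FastQC, Trimmomatic 0.38, STAR 2.6.1d and DESeq2 1.22.2 on GRCh37. Neither the counting program nor its strand setting is given in the sources used here. Dividing by the step of 1 read gave whole reads for 100% of values within 0.01, so depth is known: 21.02 to 55.68 M reads a library, where 3 reads, the limit that a count of 0 allows, are 1.90 to 5.01 normalised counts. It covers counting error only: without molecular identifiers, reads are not independent molecules. Symbols were found for 35466 identifiers, and 2656 kept none.

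Groups came from the labels. The members, the lists and the 9 libraries kept apart were chosen with earlier results of these data known, so no pattern here is independent evidence. In R 4.3.3, limma 3.58.1 with an intensity trend compared log2(normalised count + 1) between pH groups of each line, 2-sided, for genes whose mean reached 10 in the higher of the pH groups, at a Benjamini-Hochberg adjusted p under 0.05; a pseudocount of 1 understates changes of low genes. The interaction was fitted over 21 libraries. Named are the 4 members a class and line with the largest called change, both G1 regulators, 10 fixed examples of roles, the 5 smallest interaction p and up to 4 called genes a further list and line. Alternatives were all libraries as labelled, TMM and total-read scaling, a pseudocount of 5, no filter, edgeR 4.0.16 and DESeq2 1.42.0 on the recovered reads, 1 joint fit, the replicate number as a block and each library left out; leaving out libraries for the interaction and the class balance was chosen after seeing the data. The fits were run on simulated counts with planted differences larger than those of the called members and the same spread setting for all genes. That run does not show how the fits fare at differences of the size seen in the members. Python 3.11.15 with numpy 2.4.6, pandas 2.3.3 and matplotlib 3.10.9 made the counts, promoter searches and plots.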

Additional observations from a re-analysis of the deposited data

Results flagged for a closer look

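FOXM1 in FaDu pH 6.5 replicate 1, at 7860 normalised counts, stood far from the other 4 libraries of its group (5043 to 5687). CCNE2 in HCT116 pH 7.4 replicate 1, at 196 normalised counts, stood far below the other 4 (327 to 363). These were 2 of 78 such tests of a group, and chance gives about 1 in 20. The pH difference differed between lines most clearly by the limma F-test of the interaction for KIF20A (adjusted p = 0.000559), FOXM1 (0.000581), BUB1B (0.000884), CDC25C (0.0011) and PLK1 (0.00127), where in each the SiHa difference was above that of FaDu and HCT116. In libraries outside the comparisons, CDKN2C was at 2370, 7439 and 10524 normalised counts in the libraries labelled HCT116 pH 6.5 replicates 5, 6 and 7, above the highest HCT116 pH 7.4 library at 226. The same 3 libraries held SiHa genes at 37.5, 102 and 104% of the SiHa level.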

How the results depend on the processing

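With all libraries as labelled, the SiHa medians were 0.75 for G1/S genes and 1.02 for G2/M genes. In FaDu 12 G1/S genes were then higher and 2 lower, 5 G2/M genes were higher and 3 lower, and the G1/S median was 0.12. In HCT116 1 G1/S gene and 0 G2/M genes were then lower, the medians were 0.37 and 0.17, and the FOXM1 difference turned to 0.14 (limma adjusted p = 0.786). The interaction was then called for 8 G1/S and 13 G2/M genes, and the class balance changed by 0.078 in FaDu and 0.043 in HCT116. These alternatives add the 9 libraries kept apart; the cause of the changes was not tested. FaDu had 2 G1/S genes higher without the filter and in 1 fit over 21 libraries, and 8 by DESeq2; FOXM1 was the 1 G2/M gene lower by DESeq2 and in the joint fit. HCT116 had 0 G2/M genes lower without the filter, and scaling to total reads gave its G2/M median as -0.21. The shares of all genes called in each line without the filter, by DESeq2 and in the joint fit were not counted. Nor was that of the interaction with all libraries as labelled.

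With the replicate number as a replicate block, SiHa had 20 G1/S and 24 G2/M genes higher. In HCT116 3 G1/S genes (GINS1, CDT1 and RRM2) were higher and 0 G2/M genes lower, with medians of 0.31 and 0.014. The share of all genes called in these block fits was not counted. The numbers are not shown to pair the libraries. The deviations of same-numbered libraries from their group means correlated at 0.316, 0.0479 and 0.079 in SiHa and at 0.173 and 0.0553 in HCT116. Differently numbered libraries had -0.255 to 0.1277 in SiHa and -0.1725 to 0.1152 in HCT116. In both lines the pair of replicate 1 lay above these ranges and the other same-numbered pairs lay within them. In HCT116 the deviations of the pH 6.5 libraries mirror each other, so its pairs are not independent. No paired analysis was possible in FaDu because 1 library at pH 7.4 was compared.

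Leaving out each library in turn gave SiHa medians of 0.48 to 0.75 (G1/S) and 0.66 to 1.03 (G2/M) and a change of balance of -0.41 to -0.20. FaDu had 0 to 13 G1/S genes higher, 0 to 2 lower and 0 to 5 G2/M genes lower. HCT116 had 0 to 1 G1/S genes higher, 0 to 9 G2/M genes lower, and medians of -0.085 to 0.19 (G1/S) and -0.34 to -0.18 (G2/M). The interaction was called for 1 to 15 G1/S and 14 to 24 G2/M genes. For none of these omissions was the share of all genes called counted. FaDu without its pH 7.4 library was not run, since no library to compare with remains. Apart from these omissions, the called members kept direction and call in 363 of 378 cases in SiHa, 28 of 32 in FaDu and 14 of 18 in HCT116. The members that lost a call in some were CDC25A, CENPE, CENPF, E2F1 and MCM7 in SiHa, MCM5 and MCM7 in FaDu, and CDKN2C and FOXM1 in HCT116. CENPE and CDC25A lost theirs under TMM scaling (limma adjusted p = 0.0547 and 0.0557), under scaling to total reads, without the filter and in the joint fit.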
